A study of Epimedium pubescens with 12 samples.

Results

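Leaf miRNAs of Epimedium pubescens, a perennial medicinal herb of the barberry family, were compared between 90 days (90d +P) and 30 days (30d +P) of sand culture with phosphate. The members were the 3 libraries of 90d +P and the 3 libraries of 30d +P, which are 6 of the 12 small RNA libraries of the study, and all 220 miRNAs of the count table were followed in them. Both groups were seedlings watered with nutrient solution holding 1 mmol/L inorganic phosphate, labelled as Normal, and the remaining 6 libraries came from plants given 0 mmol/L (-P) for the same times. The labels give days of treatment and not the age of single leaves, and the sources used here do not say whether the leaves of both times came from the same plants or positions. The replicates A, B and C are described by the study as biological replicates. Each library was bulk leaf RNA, so a change in the cells sampled and a change per cell cannot be told apart.

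Plant miRNAs are short RNAs cut from hairpin precursors, and they guide Argonaute proteins to messenger RNAs of nearly complementary sequence, which are then cleaved or translated less. Many families are shared by most land plants, and several act in leaf development. miR156 and miR172 mark the juvenile and adult phases of the shoot in Arabidopsis, miR166 limits HD-ZIP III transcription factors and so helps to set the lower side of the leaf, and miR396 limits growth-regulating factors. Of the 220 miRNAs, 22 carry the prefix aqc, which miRBase uses for the columbine Aquilegia coerulea, and were treated as known. The other 198 are numbered predictions (novel_N).

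Mature sequences were not used here. Forward primers that the study designed for its qRT-PCR were the sequences at hand for 5 predicted miRNAs, and they are shown because these miRNAs were paired by the study with target genes and their levels are described further on. They run 5′ to 3′ in DNA letters, all in lower case, because the mature ends and the seed were not located within the primers. The primers of novel_269 and novel_188 have 24 bases and the other 3 have 23.
novel_196: ccgtttcattgtctgttctgccc
novel_269: cgcgctttctttgcaggttttgat
novel_286: gcttgggactcaagctttgtttg
novel_188: cgccatgttgtcctcttgcttatc
novel_124: cgttctcgtccttcaacctcatc
Among these 5, only novel_196 passed a test rule between 90d +P and 30d +P.

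The 90d +P libraries held a total of 1201807 (A), 1209949 (B) and 907452 (C) miRNA counts, against 574330, 380316 and 1466897 counts in the 30d +P libraries. A count of 0 allowed up to 0.904 TPM (counts per 1000000 counts of the library) over the pooled 90d +P libraries and up to 1.24 TPM over the pooled 30d +P libraries, taking 3 counts as the limit. Bounds of fold changes ("at least") set this limit against the pooled level of the other group as measured. They leave out the counting error of that level and the spread between libraries. Similarity was measured by the Pearson r of log2 CPM across the 137 miRNAs that passed the filter on low counts, and miRNAs are not independent replicates. The mean r was 0.863 within groups (6 pairs) and 0.811 between groups (9 pairs). One library stood apart from its label. The library labelled 30d +P replicate C had a mean r of 0.877 with the 90d +P libraries and of 0.855 with the other 30d +P libraries, and it was also the deepest. The main counts of calls are given with and without it.

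A single miRNA, aqc-miR166e of the leaf polarity family, held the most counts in every library. The share of aqc-miR166e was 73.1%, 70.8% and 47.7% in 90d +P (values run in the order A, B, C here and elsewhere), against 35.4%, 43.6% and 46.7% in 30d +P. The groups did not overlap, but 90d +P replicate C lay only just above 30d +P replicate C. The mean share was 63.9% ± 14.0 in 90d +P and 41.9% ± 5.83 in 30d +P (SD, n = 3 each). The exact two-sided permutation p was 0.1, the smallest that 3 libraries against 3 allow, and it was 0.25 when adjusted over 5 measures of make-up. The exact Clopper-Pearson 95% interval of a single share reached at most 0.158 percentage points to either side, so counting error was small beside the spread between libraries.

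The make-up of the libraries was summarized by the effective number of miRNAs, the exponential of the Shannon entropy, which is the number of equally abundant miRNAs that would give the same diversity. It was 3.66, 4.23 and 6.41 in 90d +P, against 8.91, 7.43 and 7.56 in 30d +P (exact permutation p = 0.1, adjusted 0.25). All 90d +P libraries were below all 30d +P libraries. With aqc-miR166e taken out of the counts, the difference turned round and the mean effective number was higher in 90d +P by 2.59. The expected number of miRNAs detected at an equal depth of 380316 counts was 141.8, 139.8 and 150.0 in 90d +P, against 172.3, 158 and 147.2 in 30d +P, and these groups overlapped (exact permutation p = 0.2, adjusted 0.25). Known miRNAs outside the miR166 family held 2.74% ± 1.30 of counts in 90d +P and 5.32% ± 0.944 in 30d +P (SD, n = 3 each). The exact permutation p was 0.2 (adjusted 0.25), and 90d +P replicate B at 4.25% lay above 30d +P replicate B at 4.24%.

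**Figure D1:**
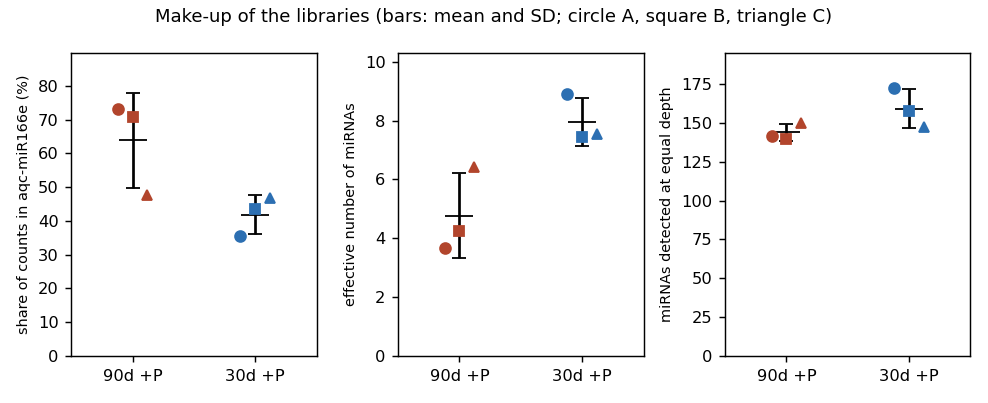
Share of counts in aqc-miR166e (percent), effective number of miRNAs and number of miRNAs detected at equal depth in each 90d +P and 30d +P library, with mean and SD (n = 3). The 90d +P libraries lie above the 30d +P libraries in the first panel and below them in the second, and overlap them in the third.

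Because a share depends on the rest of its library, differences were tested with edgeR's quasi-likelihood test after TMM scaling, which sets the bulk of miRNAs as the baseline. The filter left out 83 of the 220 miRNAs, 77 predicted and 6 known, and a miRNA could pass it through the group where it was high. No miRNA passed an adjusted p of 0.05 in this test (0 of 137, with a smallest adjusted p of 0.134), while 36 had an unadjusted p under 0.05. DESeq2 on the 12 libraries gave 31 miRNAs with an adjusted p under 0.05, the newer quasi-likelihood method of edgeR gave 19, and 18 were shared by both. A second rule, called the unadjusted rule here, asks for a p under 0.05 before adjustment and a log2 fold change of 1 or more in size. The study applied such thresholds to DESeq2, while here they were applied to edgeR, and with DESeq2 they gave 54 calls on 12 libraries and 32 on 6. By this rule in edgeR 36 of 137 miRNAs (26.3%) were called, 18 higher (13.1%) and 18 lower (13.1%) at 90d +P. All 36 kept their direction in each of the 20 alternatives where they were tested, and 30 of them were among the DESeq2 calls. The alternatives refit the same counts on which the 36 were chosen, so this is a description only. Without 30d +P replicate C the rule gave 49 calls, of which 29 were shared with these 36, and DESeq2 without this library gave 39 at an adjusted p under 0.05. Without 90d +P replicate A it gave 22 calls, of which 16 were shared.

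The balance of higher and lower calls depended on the scaling. With library totals as the only scaling, 8 miRNAs were higher and 39 lower, and the median log2 fold change of all 137 miRNAs moved by -0.75, to -0.70 from 0.05. With totals that left out aqc-miR166e the split was 19 higher and 18 lower. On the TPM scale 13 of 137 miRNAs (9.49%) were higher in all 3 of the 90d +P libraries than in any 30d +P library and 29 (21.2%) were lower in all 3. On the TMM-scaled CPM these were 19 (13.9%) and 11 (8.03%). Levels are TPM from here on, LFC stands for the log2 fold change of 90d +P over 30d +P in the TMM-scaled edgeR fit with its standard error (SE), and the value with library totals is given where it differs in kind. The SE was calculated back from the test, as the size of the LFC over the square root of the quasi-likelihood F statistic.

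**Figure D2:**
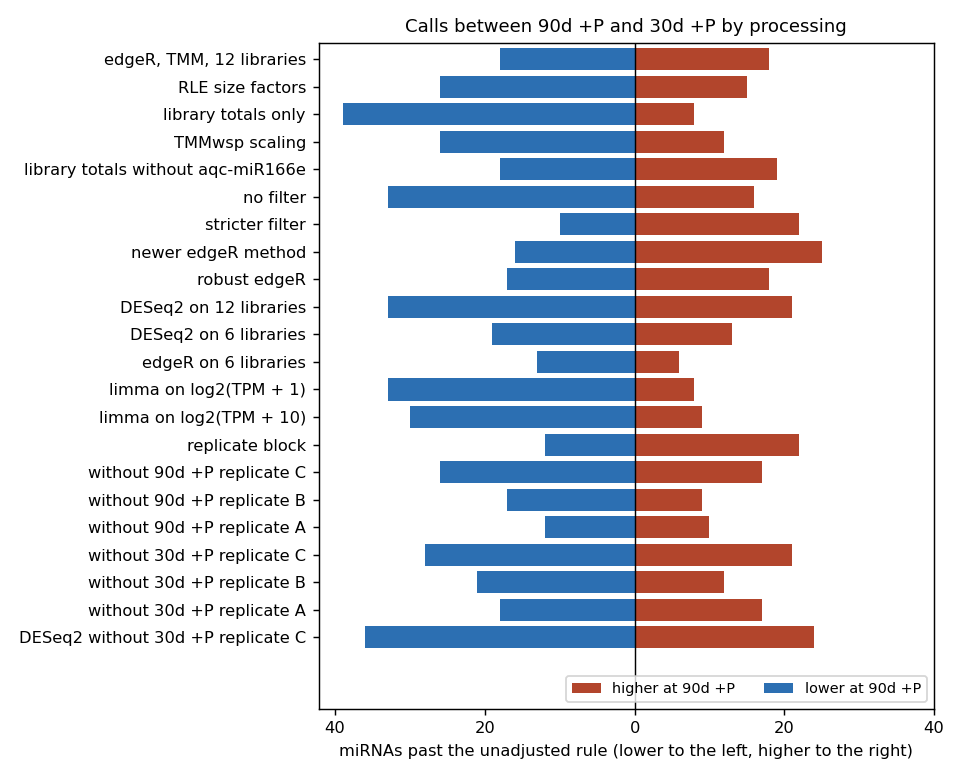
Number of miRNAs past the unadjusted rule between 90d +P and 30d +P, higher to the right and lower to the left, in the fit as reported (top bar) and under each alternative. Lower calls took their largest share with library totals (8 higher, 39 lower), and higher calls took theirs with the stricter filter (22 higher, 10 lower).

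Of the 22 known miRNAs, 16 passed the filter, and 6 of these (37.5%, against 26.3% of all 137 tested) were called by the unadjusted rule. Those higher at 90d +P were aqc-miR166e and aqc-miR398a, and those lower were aqc-miR399, aqc-miR171a, aqc-miR171f and aqc-miR172a. The median LFC of the 16 was -0.63, against 0.05 over all 137. On the TPM scale 7 of the 16 were lower in all 3 of the 90d +P libraries, against 21.2% of all tested, and 1 was higher. On the TMM-scaled CPM 3 were lower in all 3 (aqc-miR399, aqc-miR171a and aqc-miR396a) and aqc-miR166e was higher.

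The miR166 family, which acts on HD-ZIP III factors, had 3 members in the table, and their fitted changes differed in sign. aqc-miR166e was at 730871, 707854 and 477381 TPM in 90d +P, against 353819, 435604 and 466689 TPM in 30d +P. Its LFC was 1.31 (SE 0.46), with an adjusted p of 0.134 in edgeR and 0.0189 in DESeq2 on 12 libraries (0.0189 to 0.274 over the 20 alternatives), and the LFC was 0.61 with library totals. aqc-miR166c was at 34931, 32461 and 90535 TPM in 90d +P, against 86557, 144887 and 109814 TPM in 30d +P. Replicate C of 90d +P lay within the 30d +P range, and the LFC was -0.35 (SE 0.65, adjusted p = 0.752 in edgeR). aqc-miR166a had an LFC of -0.22 (SE 0.62, adjusted p = 0.829 in edgeR).

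A ratio of 2 members within a library does not depend on scaling. For each aqc-miR166c count there were 20.9, 21.8 and 5.27 counts of aqc-miR166e in 90d +P, against 4.09, 3.01 and 4.25 in 30d +P. All 90d +P ratios were above all 30d +P ratios, and replicate C was far nearer to 30d +P than replicates A and B were. The log2 difference was 1.84, with an exact permutation p of 0.1 and 0.2 adjusted over 6 ratios. The ratio of aqc-miR166e to aqc-miR166a was 88.4, 87.3 and 19.0 in 90d +P, against 14.9, 13.8 and 17.1 in 30d +P (exact permutation p = 0.1, adjusted 0.2). In contrast, aqc-miR166a per aqc-miR166c was 0.237, 0.250 and 0.277 in 90d +P, against 0.275, 0.218 and 0.249 in 30d +P (exact permutation p = 0.7, adjusted 0.7). These 6 ratios were chosen after values had been seen, and the division of reads among near-identical members is not described in the sources used here.

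The phase-change families were scarce in these leaves. aqc-miR156b, whose family keeps the shoot juvenile by limiting SPL factors in Arabidopsis, had 0 counts in each 90d +P library, against 4, 1 and 5 counts in 30d +P. It was below the filter and was not tested, and by the limit of 3 counts the pooled 90d +P level was lower by at least 4.57-fold. aqc-miR172a, whose family limits AP2-like factors, had 3, 2 and 0 counts in 90d +P, against 7, 29 and 3 counts in 30d +P. The groups overlapped on the TPM scale, since 90d +P replicate A at 2.50 TPM lay above 30d +P replicate C at 2.05 TPM. The LFC was -3.47 (SE 1.59) with an unadjusted p of 0.0470 in edgeR (adjusted 0.184), and it was -1.56 without 30d +P replicate B. aqc-miR172b had no count in the 6 libraries.

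miR171 targets GRAS transcription factors of the HAM group, which act in meristems, and both of its members were lower at 90d +P. aqc-miR171a was at 5.82, 0.826 and 5.51 TPM in 90d +P, against 33.1, 121 and 36.1 TPM in 30d +P. The groups were well apart in all libraries. Its LFC was -3.13 (SE 1.07), with an adjusted p of 0.134 in edgeR, 0.00416 in DESeq2 on 12 libraries and 0.0487 with the newer edgeR method (0.00416 to 0.274 over the 20 alternatives). aqc-miR171f was at 10.8, 25.6 and 57.3 TPM in 90d +P, against 141, 365 and 150 TPM in 30d +P. The groups were apart in TPM but overlapped on the TMM-scaled CPM. Its LFC was -2.04 (SE 0.93), with an adjusted p of 0.184 in edgeR and 0.0189 in DESeq2 (0.0189 to 0.342 over the alternatives). Leaving out single libraries gave -3.80 to -2.55 for aqc-miR171a and -3.02 to -1.59 for aqc-miR171f.

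miR396 limits growth-regulating factors, which promote cell division in young leaves. aqc-miR396a was at 2581, 3017 and 1956 TPM in 90d +P, against 7137, 7546 and 6707 TPM in 30d +P, and aqc-miR396b was at 16104, 16039 and 16468 TPM in 90d +P, against 39761, 26717 and 49204 TPM in 30d +P. Both were lower in all 3 of the 90d +P libraries on this scale. The SD within 90d +P was 533 TPM around a mean of 2518 TPM for aqc-miR396a and 231 TPM around 16204 TPM for aqc-miR396b. Their LFCs were -0.75 (SE 0.62) and -0.53 (SE 0.60) after TMM scaling, with adjusted p values of 0.433 and 0.573, and -1.50 and -1.25 with library totals. Neither passed a threshold in any of the 20 alternatives at an adjusted p of 0.05.

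aqc-miR319, whose family acts on TCP factors of leaf margins, was at 263, 154 and 255 TPM in 90d +P, against 1022, 936 and 241 TPM in 30d +P. Replicate C of 30d +P again lay with the 90d +P libraries. The LFC was -0.75 (SE 0.74, adjusted p = 0.514 in edgeR), and -1.39 (unadjusted p of 0.103 in edgeR) without 30d +P replicate C. aqc-miR159, whose family limits GAMYB-like factors, had 2, 6 and 12 counts in 90d +P, against 4, 5 and 13 in 30d +P. Its LFC was 0.20 (SE 0.96) after TMM scaling and -0.54 with library totals, with no call in either. aqc-miR160b, which limits auxin response factors, was at 15.0, 36.4 and 34.2 TPM in 90d +P, against 43.5, 47.3 and 43.6 TPM in 30d +P. It was lower in all libraries on the TPM scale, but its LFC was 0.08 (SE 0.80) after TMM scaling and -0.65 with library totals.

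Among families tied to mineral nutrition, aqc-miR399 was lower at 90d +P. miR399 limits PHO2, a brake on phosphate uptake, and is induced by phosphate starvation. It had 0 counts in each 90d +P library, against 2, 3 and 10 counts in 30d +P, so that by the limit of 3 counts its pooled level was at least 6.85-fold lower. In edgeR its p was 0.00485 (adjusted 0.134), and in DESeq2 on 12 libraries the adjusted p was 0.0186 (0.0186 to 0.244 over the alternatives). Under -P its time effect had the opposite sign, with an LFC of 1.22 (SE 0.99), and the difference between both time effects had an unadjusted p of 0.00387 in edgeR (adjusted 0.530). aqc-miR399 passed the filter on low counts only with the -P libraries included. Among the 36 calls this also held for aqc-miR172a and for novel_73, novel_105, novel_125, novel_133, novel_204 and novel_250. aqc-miR395b, which limits sulfate assimilation genes, was at 11.6, 33.9 and 2.20 TPM in 90d +P, against 27.9, 239 and 33.4 TPM in 30d +P. The groups overlapped, and the LFC was -1.98 (SE 1.14, adjusted p = 0.260 in edgeR).

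miR398 limits copper/zinc superoxide dismutases and responds to copper supply in Arabidopsis. aqc-miR398a was at 296, 1562 and 52.9 TPM in 90d +P, against 6.96, 113 and 60.7 TPM in 30d +P. Replicate C of 90d +P lay inside the 30d +P range, so the groups overlapped. The LFC was 3.90 (SE 1.44), with an adjusted p of 0.136 in edgeR and 0.0189 in DESeq2 on 12 libraries (0.0189 to 0.295 over the alternatives), and single libraries left out gave 2.58 to 4.64. aqc-miR398b was at 513, 21580 and 1165 TPM in 90d +P, against 11138, 6082 and 1368 TPM in 30d +P. Here 1 library decided the direction, because the LFC was 1.19 (SE 1.18, adjusted p of 0.514 in edgeR) with all libraries and -2.33 without 90d +P replicate B. Per aqc-miR398b count there were 0.577, 0.0724 and 0.0454 counts of aqc-miR398a in 90d +P, against 0.000625, 0.0186 and 0.0443 in 30d +P (exact permutation p = 0.1, adjusted 0.2). The groups were apart only by the narrow gap between both replicates C.

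The remaining known miRNAs were low. aqc-miR477e was at 27.5, 32.2 and 7.71 TPM in 90d +P, against 73.1, 78.9 and 42.3 TPM in 30d +P, with an LFC of -0.72 (SE 1.15, adjusted p = 0.699 in edgeR). aqc-miR169a, aqc-miR169b, aqc-miR169c and aqc-miR535 had between 0 and 3 counts in every one of the 6 libraries and were not tested.

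**Figure D3:**
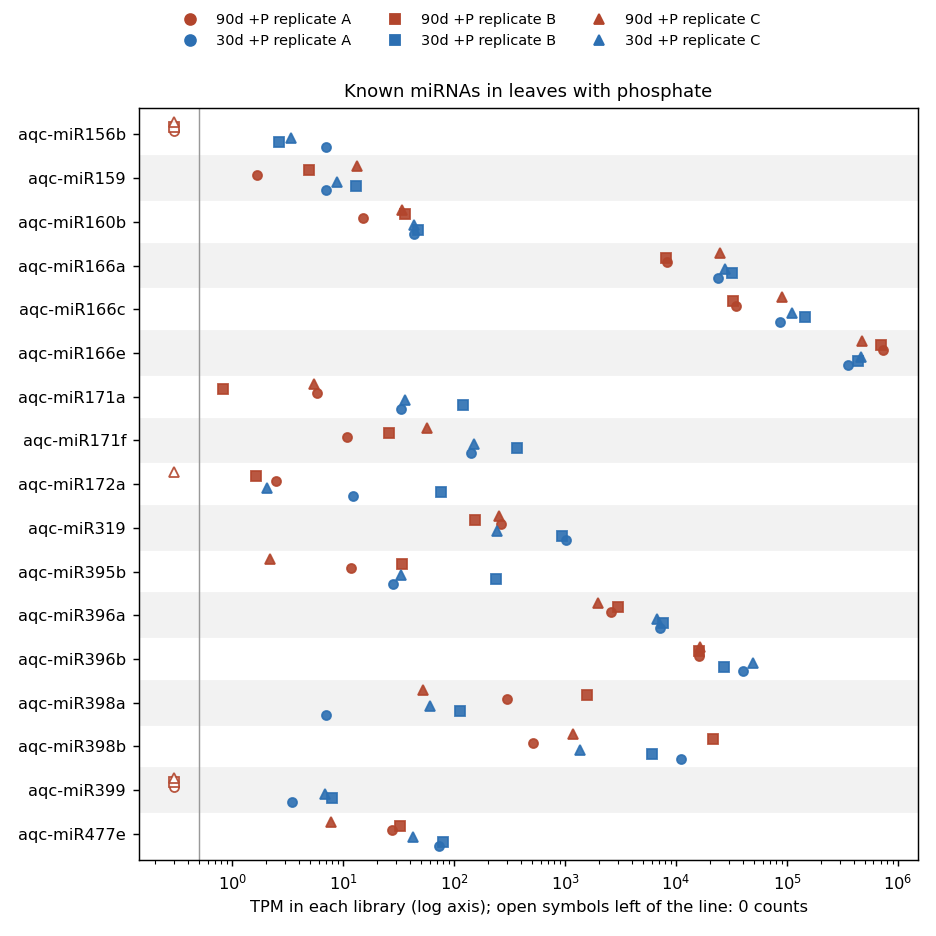
TPM of the 16 tested known miRNAs and of aqc-miR156b in each 90d +P (upper, red) and 30d +P (lower, blue) library on a log axis, with libraries at 0 counts as open symbols left of the line. Both miR171 members lie lower in all 90d +P libraries, and aqc-miR166e lies higher in all of them.

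**Figure D4:**
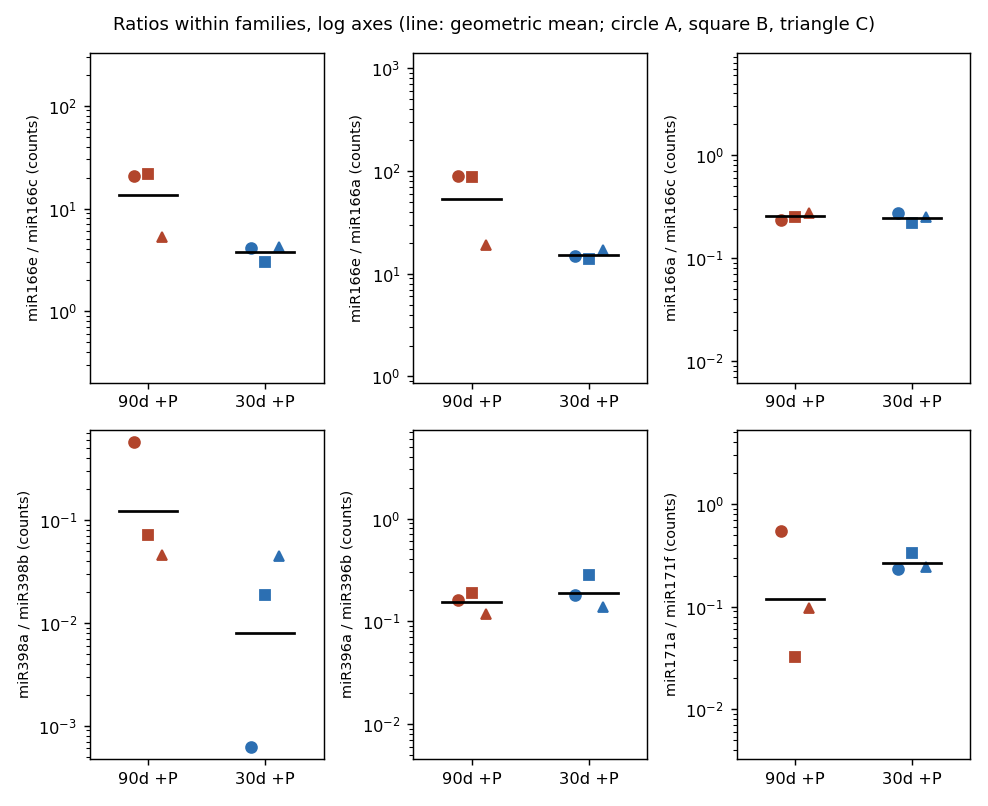
Ratio of counts of 2 members of a family in each 90d +P and 30d +P library, on log axes of equal span, with the geometric mean as a line. The ratio of aqc-miR166a to aqc-miR166c stays between 0.218 and 0.277 in all 6 libraries, while both ratios with aqc-miR166e are higher in 90d +P.

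Of the 198 predicted miRNAs, 121 were tested, and 30 of these (24.8%, against 26.3% of all 137 tested) passed the unadjusted rule, 16 higher and 14 lower at 90d +P. By mean level, 3 of 13 predictions under 10 TPM were called, 18 of 54 from 10 to 100 TPM, 8 of 33 from 100 to 1000 TPM and 1 of 21 at 1000 TPM or more. Without 30d +P replicate C these were 4, 17, 12 and 7. That library was singled out by its likeness to 90d +P in these same data, so leaving it out favours more calls. The split by level was not made with any other library left out. None of those 7 (novel_5, novel_12, novel_20, novel_30 and novel_175 higher, novel_15 and novel_31 lower) was among the 36, and they were named after their values were seen. Of these, novel_5 was at 17000.2, 10921 and 11521 TPM in 90d +P, against 3662, 2553 and 14244 TPM in 30d +P, where only replicate C lay among the 90d +P values. Its LFC was 1.49 (unadjusted p of 0.124 in edgeR) with all libraries and 2.83 (unadjusted p of 0.00571 in edgeR) without that library. The 1 call with all libraries was novel_26. It was higher with an LFC of 1.58 (SE 0.62), but its groups overlapped and the unadjusted p was 0.243 in edgeR without 30d +P replicate C. novel_1, the most abundant prediction, was at 58247, 44770 and 90481 TPM in 90d +P, against 133813, 158926 and 96372 TPM in 30d +P. It was lower in all 3 libraries on the TPM scale, while its LFC was -0.18 (SE 0.45, adjusted p of 0.821 in edgeR) after TMM scaling and -1.01 with library totals.

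The prediction with the smallest p, novel_45, was higher at 90d +P. It was at 1480, 796 and 227 TPM in 90d +P, against 178, 124 and 181 TPM in 30d +P. The 90d +P libraries all exceeded the 30d +P ones, although replicate C exceeded the highest 30d +P library by little. The LFC was 3.13 (SE 0.83), with an adjusted p of 0.134 in edgeR, 0.00183 in DESeq2 on 12 libraries and 0.0412 with the newer edgeR method (0.00183 to 0.274 over the alternatives). novel_58 was at 167, 133 and 93.7 TPM in 90d +P, against 57.5, 15.8 and 47.7 TPM in 30d +P, with an LFC of 2.48 (SE 0.84). Its groups were clearly apart and its adjusted p in edgeR was also 0.134.

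Other higher predictions were scarcer. novel_211 had 52, 14 and 13 counts in 90d +P, against 4, 1 and 6 in 30d +P, novel_250 had 15, 20 and 6, against 0, 0 and 3, and novel_105 had 20, 117 and 6, against 3, 0 and 7. In TPM each of the 3 was higher in all 90d +P libraries. Their LFCs were 3.14 (SE 0.96), 3.95 (SE 1.30) and 4.04 (SE 1.38), with an adjusted p of 0.134 in edgeR for each. For novel_105, replicate B held most of the 90d +P counts, and without it the LFC was the lowest of the leave-one-out fits at 2.39. Its groups were apart in TPM only by the gap between 6.61 TPM in 90d +P replicate C and 5.22 TPM in 30d +P replicate A.

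novel_196, which the study pairs with genes of the MYB family, was at 273, 892 and 185 TPM in 90d +P, against 92.3, 26.3 and 126 TPM in 30d +P. It was higher in all 3 of the 90d +P libraries, with an LFC of 3.06 (SE 1.04), an adjusted p of 0.134 in edgeR and 0.0189 in DESeq2 on 12 libraries (0.0189 to 0.295 over the alternatives). novel_79, which the study pairs with a glyoxylate/hydroxypyruvate reductase, was at 39.1, 62.8 and 61.7 TPM in 90d +P, against 6.96, 18.4 and 20.5 TPM in 30d +P. Its groups were also apart, and its LFC was 2.44 (SE 0.83), with an adjusted p of 0.134 in edgeR, 0.00416 in DESeq2 and 0.0314 with the newer edgeR method (0.00416 to 0.274 over the alternatives).

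The other miRNAs that the study pairs with targets did not pass the rule. novel_286, paired with a receptor-like kinase, was at 44.1, 17.4 and 9.92 TPM in 90d +P, against 50.5, 0 and 0.682 TPM in 30d +P. Its highest library was 30d +P replicate A, and the LFC was 1.76 (SE 1.27, adjusted p = 0.365 in edgeR), and 5.50 without that library. novel_269, paired with a cellulose synthase subunit, had 1, 7 and 2 counts in 90d +P, against 2, 7 and 22 in 30d +P, with an LFC of -1.47 (SE 1.03, adjusted p = 0.359 in edgeR). novel_188, paired with an interactor of ROP GTPases, was below the filter with 8, 3 and 0 counts in 90d +P, against 1, 0 and 0 in 30d +P. novel_124, paired with a pentatricopeptide protein, was also below it, with 0, 0 and 8 counts in 90d +P, against 0, 38 and 3 in 30d +P.

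The lower predictions were led by novel_214, at 4.99, 14.1 and 26.4 TPM in 90d +P, against 235, 1415 and 42.3 TPM in 30d +P. The groups did not overlap, and the size depended on 30d +P replicate B, since the LFC was -4.39 (SE 1.33, adjusted p of 0.134 in edgeR) with all libraries and -2.85 without that one. novel_209 was at 21.6, 23.1 and 1.10 TPM in 90d +P, against 951, 216 and 162 TPM in 30d +P, the widest gap among these. Its LFC was -3.81 (SE 1.37), with an adjusted p of 0.136 in edgeR and 0.0102 in DESeq2 on 12 libraries (0.00759 to 0.274 over the alternatives). novel_51 was at 10.8, 39.7 and 12.1 TPM in 90d +P, against 110, 765 and 40.9 TPM in 30d +P. Its groups were separated only by the gap between 39.7 and 40.9 TPM, with an LFC of -3.14 (SE 1.16), and -1.38 without 30d +P replicate B. On the TMM-scaled CPM the groups overlapped.

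novel_133 had 2, 0 and 0 counts in 90d +P, against 33, 46 and 4 in 30d +P, and its LFC was -5.52 (SE 1.92, adjusted p of 0.134 in edgeR). All its 90d +P libraries were lower in TPM. novel_204 had 0, 0 and 1 counts in 90d +P, against 98, 8 and 0 in 30d +P, so the groups overlapped and replicate A of 30d +P held most counts. novel_73 had 0 counts in each 90d +P library, against 1, 21 and 3 in 30d +P, and its pooled level was at least 11.4-fold lower. Replicate B of 30d +P held most of these counts, and the bound was 2.17-fold without it, 14.4-fold without replicate A and 25.5-fold without replicate C. For each of these 3, at most 4 counts came from 30d +P replicate C. The other 8 predictions past the rule in this direction ran from novel_242, at 16.6, 23.1 and 16.5 TPM in 90d +P, against 242, 78.9 and 64.1 TPM in 30d +P (LFC -1.79), to novel_125, with 0 counts in 90d +P. Of these, novel_242, novel_86, novel_102, novel_107 and novel_178 were lower in all 3 of the 90d +P libraries on the TPM scale.

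**Figure D5:**
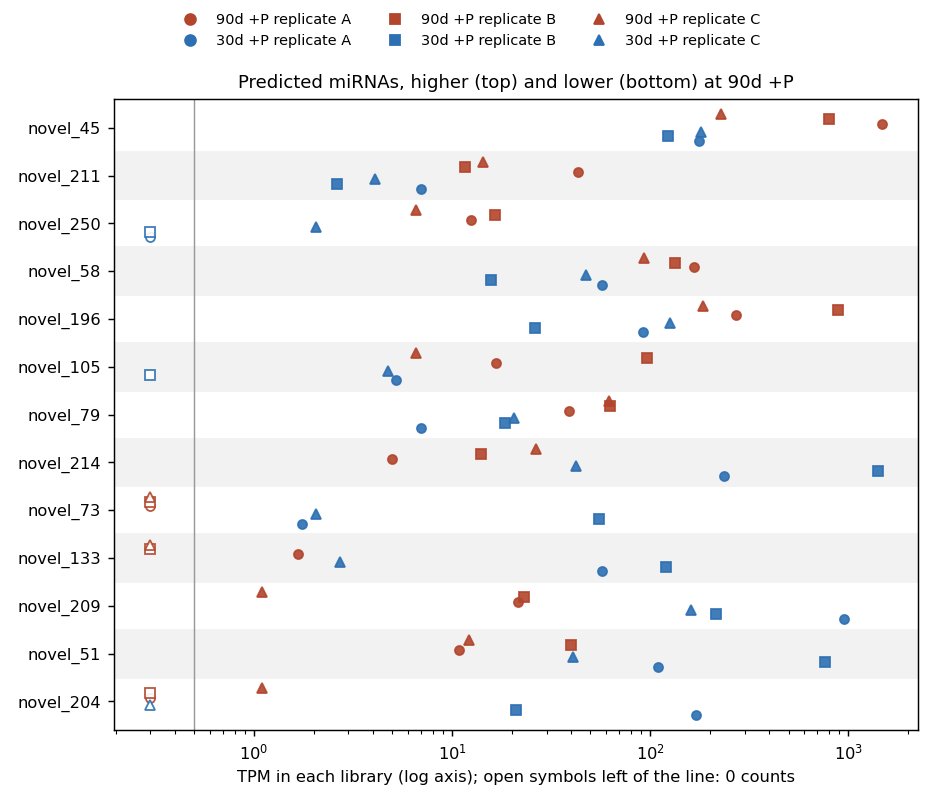
TPM of the 6 higher and 6 lower predicted miRNAs with the smallest p and of novel_79 in each 90d +P (upper, red) and 30d +P (lower, blue) library on a log axis, with libraries at 0 counts as open symbols left of the line. The triangle of 30d +P replicate C is the 30d +P library nearest to the 90d +P libraries for novel_214, novel_209 and novel_51.

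The same time span in deficient leaves (90d -P over 30d -P), which shares no library with this comparison, was used to ask where the phosphate-supplied leaves differed. Of the 36 miRNAs called under +P, 31 (86.1%) had the same sign under -P, against 62 of the other 101 tested (61.4%), and 34 had a smaller absolute LFC under -P. Among the 36, novel_196 and novel_87 also passed the unadjusted rule under -P. Outside the 36, the rule was passed under -P by novel_15, novel_18, novel_33, novel_68, novel_114, novel_118, novel_121, novel_223 and novel_269. Few miRNAs of either set passed it under -P, so the small overlap is a description only. novel_196 had an LFC of 3.46 (SE 1.06) under -P, and the difference between both time effects was -0.40 with an unadjusted p of 0.774 in edgeR. aqc-miR171a had -0.76 (SE 0.97) under -P, and the difference of -2.37 had an unadjusted p of 0.114 in edgeR. No difference between the time effects under +P and -P passed an adjusted p of 0.05 (0 of 137 in edgeR, smallest 0.530). An unadjusted p under 0.05 in edgeR was found for 7, against 6.85 of 137 expected by chance. Outside the 36 these were novel_18, novel_83, novel_94 and novel_269, and 3 were among the 36 (aqc-miR399, novel_73 and novel_105). None of these 3 passed the filter on the +P libraries alone. They were tested only because of counts in -P libraries, which favours a difference, so their p-values are a description only. For novel_105 the LFC was 4.04 under +P and -0.13 (SE 1.27) under -P, with an unadjusted p of 0.0406 in edgeR for the difference. The 36 were chosen on the +P comparison, so a smaller size under -P is a description only.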

How the data were processed

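Per the labels, leaf small RNA libraries were made with a NEBNext kit for which no molecular identifiers are described, so intervals cover counting error only. The authors removed low-quality, rRNA, tRNA, snRNA and repeat reads and predicted miRNAs with miREvo and mirdeep2, and the submitters' processing notes name Bowtie and DESeq2. For genome build and mismatch settings, the sources used here give nothing. The deposited tables hold raw read counts for 220 miRNAs in 12 libraries, deposited TPM values that equal counts per 1000000 counts of the table (relative tolerance 1e-06), and the authors' group means, which are estimated counts and were not used. Unmapped columns numbered 0.

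Counts of all 12 libraries were fitted with edgeR 4.0.16 (older quasi-likelihood method, R 4.3.3), TMM scaling, 4 groups, no covariate and filterByExpr at 10 counts, which left 137 miRNAs (16 known, 121 predicted) holding 99.98% of counts. p-values were Benjamini-Hochberg adjusted over the 137. The common dispersion of 0.748 equals a coefficient of variation between libraries of 86.5%. Totals of the 6 libraries ran from 380316 to 1466897, and TMM factors were 0.688 to 0.835 in 90d +P and 0.932 to 1.85 in 30d +P. DESeq2 1.42.0, limma 3.58.1 and other alternatives are given at the end. A run of the fit on simulated counts, in which aqc-miR166e was left unchanged, checked the code only, and no result rests on it. The miRNAs named were every known one, the 6 higher and 6 lower predictions past the unadjusted rule with the smallest p, the 3 largest shares, those the study pairs with targets, and up to 3 predictions a direction at 0 counts in a whole group with the largest bound. Members and lists were chosen with earlier results of these data known.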

Additional observations from a re-analysis of the deposited data

How the results depend on the processing

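The number of miRNAs with an adjusted p under 0.05 was 0 in edgeR's older method, limma, every scaling, the replicate block and every fit that left out 1 library, but 1 with the stricter filter (10 counts in 6 libraries), 12 with DESeq2 on 6 libraries, 19 under edgeR's newer method, 31 in DESeq2 fits of 12 libraries and 39 with DESeq2 without 30d +P replicate C (added after the data were seen). By the unadjusted rule, 36 calls became 19 with edgeR on 6 libraries and 60 with DESeq2 without 30d +P replicate C, 22 to 49 with single libraries left out, and 32 to 54 otherwise. With the replicate block there were 34 calls, 22 higher and 12 lower. The letters were not taken to pair the libraries, since same-letter deviations correlated at 0.122, 0.214 and -0.021 for A, B and C, and 90d +P replicate A correlated best with 30d +P replicate C (0.132). Splits of higher and lower calls were 15 and 26 with RLE, 12 and 26 with TMMwsp, 16 and 33 with no filter, 22 and 10 with the stricter filter, 8 and 33 or 9 and 30 with limma on log2(TPM + 1) or log2(TPM + 10), 6 and 13 with edgeR on 6 libraries, and 21 and 33 with DESeq2 on 12 libraries. Of the 32 named and tested miRNAs, 28 kept their direction throughout. aqc-miR159 turned to -0.076 (RLE), -0.54 (library totals), -0.10 (TMMwsp), -0.032 (totals without aqc-miR166e), -0.15 (no filter), -0.090 (DESeq2 on 12 libraries), -0.77 and -0.29 (limma), and ran from -1.01 to 0.65 with libraries left out. aqc-miR160b turned to -0.21, -0.65, -0.24, -0.28 (no filter), -0.22 and -0.20 (DESeq2 on 12 and 6), -0.30 (edgeR on 6), -0.73 and -0.56 (limma), and ran from -0.32 to 0.31. aqc-miR398b turned to -0.95 and -0.94 in limma and ran from -2.33 to 1.94, and aqc-miR166a ran from -1.22 to 0.011. The aqc-miR166a to aqc-miR166c ratio ran from -0.042 to 0.124 in its log2 difference. Without aqc-miR166e in the totals, the difference in the known share turned to -7.94 percentage points from 11.9, that of known miRNAs other than miR166 became -0.605 points from -2.58, and that in the effective number became 2.59 from -3.20. With single libraries left out, higher calls ran from 9 (without 90d +P replicate B) to 21 and lower calls from 12 to 28 (without 30d +P replicate C). The causes of these changes were not tested, other than the removal of aqc-miR166e itself. Depth limits miRNAs under about 3 counts a library.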

Other observations

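Several miRNAs below or near the filter were seen at a single time point. Over the 6 libraries, 13 miRNAs had counts in 90d +P and none in 30d +P, 21 had counts in 30d +P and none in 90d +P, 181 were in both and 5 in neither. novel_293 had 0 counts in each 90d +P library, against 19, 0 and 40 in 30d +P, and the pooled 90d +P level was lower by at least 27.0-fold. novel_180 had 0 counts in each 90d +P library, against 0, 16 and 29 in 30d +P, which is at least 20.6-fold lower. For both, 1 of the 3 libraries of 30d +P was also at 0. In the other direction novel_155 had 23 counts in 90d +P, all in replicate C, and 0 in 30d +P, so its bound of at least 5.59-fold rests on 1 library. novel_233 had 1, 5 and 11 counts in 90d +P and 0 in each 30d +P library, at least 4.13-fold higher, and novel_129 had 9, 0 and 7, against 0, at least 3.89-fold higher. Without 90d +P replicate C the bound of novel_233 was 2.01-fold, and without 90d +P replicate B that of novel_129 was 6.12-fold.

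The ratio of aqc-miR398a to aqc-miR398b was also higher at 90d in deficient leaves, at 0.0699, 0.0185 and 0.0235 in 90d -P, against 0.00403, 0.0103 and 0.00569 in 30d -P, with no overlap. The fitted changes of its members were unlike those under +P. Under -P the LFC was 0.05 (SE 1.28) for aqc-miR398a and -2.43 (SE 1.23) for aqc-miR398b, against 3.90 and 1.19 under +P. The ratio of aqc-miR166e to aqc-miR166c was 12.4, 5.36 and 12.6 in 90d -P, against 8.91, 6.67 and 4.99 in 30d -P, and these groups overlapped. Both sets of ratios were looked up after those under +P had been seen and were not tested.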
